A study of Mus musculus with 12 samples.

Results

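Genes of the oligodendrocyte lineage were followed in neurospheres, which are spheres of neural stem cells and progenitors grown in suspension. The set was chosen by gene symbol and holds 9 genes in 3 roles. Olig1, Olig2, Sox10 and Sox8 encode transcription factors of the lineage, Pdgfra and Cspg4 encode surface proteins of oligodendrocyte progenitors, and Mbp, Cnp and Cldn11 encode proteins of myelin. Of these, 7 genes had at least 1 probe, together 10 of the 21738 probes on the arrays and 7 of 15081 named genes. Mbp had 3 probes and Pdgfra had 2. Sox8 and Cspg4 matched no probe in the annotation used and were not analysed here.

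Oligodendrocytes wrap the axons of the central nervous system in myelin. Their development depends on Olig2 and Sox10. The progenitors proliferate in response to platelet-derived growth factor through its receptor alpha (Pdgfra), and switch on myelin genes such as Mbp when they mature. In the mouse cortex most of these cells arise late in development, and progenitors kept in fibroblast growth factor and epidermal growth factor can take on features of the lineage in culture.

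The neurospheres came from the cortex of mouse embryos of gestational day 12.5 and were grown without serum in 20 ng/ml basic fibroblast growth factor, 20 ng/ml epidermal growth factor and 0.15 ng/ml leukemia inhibitory factor. Each of 4 groups had 3 of the 12 arrays, for 2 treatments (control and prominin) at 2 culture times (24 and 108 h). Control cultures received growth medium alone, and prominin cultures also received an adenovirus that expresses prominin-1 (CD133), a membrane glycoprotein by which neural stem cells are often sorted. Every array set Cy5-labelled neurosphere RNA against Cy3-labelled RNA from whole C57/Bl6 embryos of gestational day 12. The strain of the cultured cells is not given in the labels. The design text names GFP as the counterpart of prominin, whereas the treatment text gives the controls no virus, so effects of the virus and of prominin-1 cannot be told apart. The treatment text of the prominin cultures at 24 h also gives 108 h, and the time in their titles was used. Control and prominin below stand for cultures so labelled, and n counts arrays. Whether the replicates of a group came from separate cultures is not stated, so each p-value speaks only of the spread among these arrays, which may be technical.

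Values are log2 ratios, read as neurosphere over embryo, after each array was shifted so that the median of its common probes was 0. A value of 0 is therefore the level of a typical probe and not that of the reference, and a ratio compares a gene with itself in the embryo, not with another gene. Which way the ratio runs is not stated in the labels. Under this reading the medians of 9 genes of mesenchyme, pericytes and meninges, tissues of the whole embryo, lay between −6.00 and −3.71 on the 12 arrays, and those of 10 astrocyte genes between 1.76 and 4.74. The probe for Prom1, the gene of prominin-1, went both ways: in controls it read 1.72 and 0.66 at 24 h and −2.51, −2.33 and −4.34 at 108 h, and in prominin cultures −1.62 and −0.45 at 24 h and −0.11 and −0.85 at 108 h. All 4 values at 24 h were small ratios. Prominin cultures thus read lower than controls at 24 h and higher at 108 h, and the limma test called neither difference (−2.23, SE 0.95, adjusted p = 0.998 at 24 h and 2.58, SE 0.87, adjusted p = 0.717 at 108 h). The labels do not say which species the expressed prominin-1 came from or whether this probe detects it, so the probe does not check the labels.

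The arrays at 24 h held more missing values and more small ratios than those at 108 h, which bears on every comparison with time. Ratios of whole numbers of at most 10, as dim spots give, took a share of 31.6 to 56.0% of the measured probes on arrays at 24 h, and of 3.30 to 9.61% on those at 108 h. Among the oligodendrocyte probes, 24 of the 45 measured values at 24 h were such small ratios, against 5 of 52 at 108 h. A further 13 values at 24 h and 8 at 108 h were exact zeros, and 2 values at 24 h held a top code, and all of these were treated as missing. Olig1 was measured on every array without a small ratio, and Olig2 with 1.

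**Figure D1:**
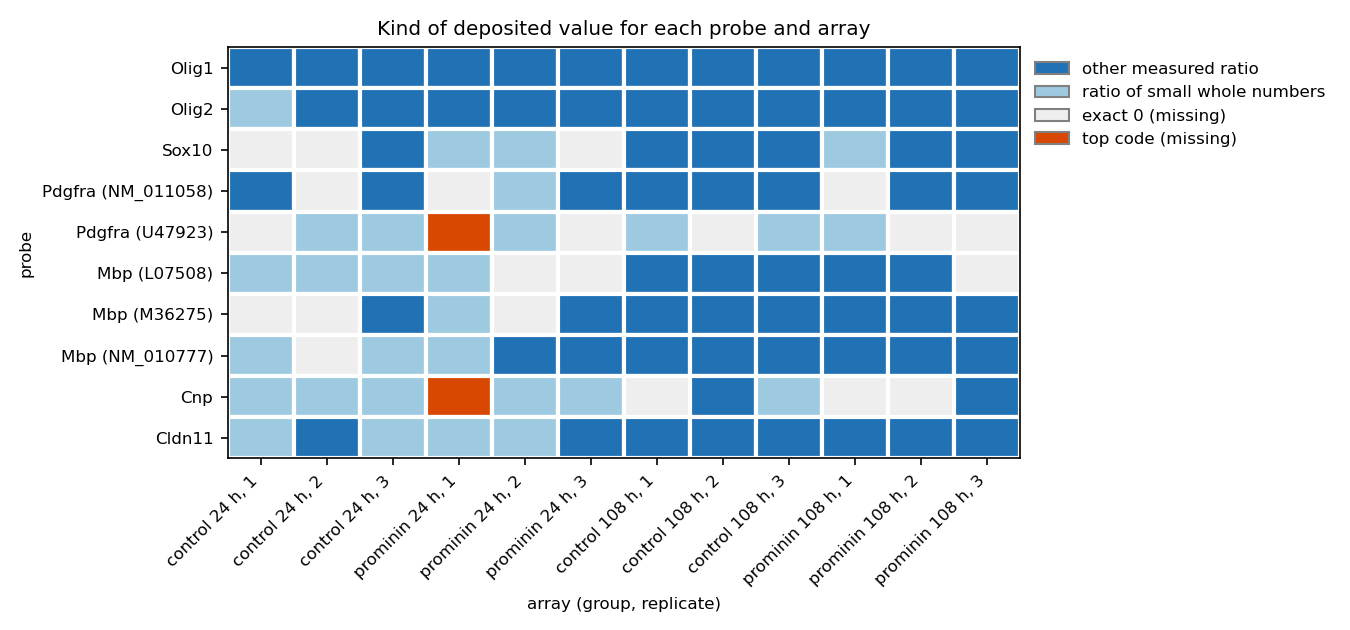
Kind of deposited value for each of the 10 oligodendrocyte lineage probes (vertical axis) on each of the 12 arrays (horizontal axis, by group and replicate). Dark blue marks other measured values, light blue ratios of small whole numbers, grey exact zeros and orange the top code. Small ratios fill 24 of 60 positions at 24 h and 5 of 60 at 108 h.

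Olig1 and Olig2, a pair of basic helix-loop-helix factors encoded side by side on mouse chromosome 16, stood far above the typical probe on every array. Olig1 averaged 6.06 ± 1.05 (SD, n = 12) and lay between the 93.6 and 99.8 percentiles of the measured probes of its array. Olig2 averaged 5.05 ± 0.72 (SD, n = 12) and lay between the 87.5 and 99.0 percentiles. Before centring, too, both genes read above the embryo reference on 12 of 12 arrays. In bulk RNA such as this, a change in the number of cells of a type and a change in RNA per cell cannot be told apart.

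Olig1 read 6.78, 7.12 and 6.15 in controls and 6.50, 6.37 and 7.76 in prominin cultures at 24 h. At 108 h it read 5.12, 4.97 and 4.19 in controls and 5.39, 5.40 and 6.93 in prominin cultures. The 3 controls at 108 h were the lowest of all 12 arrays. Olig2 read 4.21, 5.82 and 4.68 in controls and 4.32, 5.47 and 5.36 in prominin cultures at 24 h. At 108 h it read 5.56, 5.51 and 3.79 in controls and 4.38, 5.57 and 5.90 in prominin cultures. The ranges of Olig2 overlapped in every pair of groups compared.

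Sox10, a partner factor that drives the lineage toward myelin gene expression, was measured on 9 arrays. At 24 h it read 1.18 on 1 control array and −0.62 and 0.14 on 2 prominin arrays, the last 2 being small ratios, and was listed at 0 on the other 3 arrays. At 108 h it read 3.60, 1.55 and 0.30 in controls and 3.92 (a small ratio), 3.57 and 2.21 in prominin cultures. Sox10 was thus measured on all 6 arrays at 108 h, over a range in controls that took in the lowest prominin value. Its mean was 0.23 ± 0.90 (SD, n = 3) at 24 h and 2.53 ± 1.43 (SD, n = 6) at 108 h.

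Pdgfra, the growth factor receptor of progenitors, which is also strongly expressed in embryonic mesenchyme, had 2 probes that disagreed. The probe NM_011058 read −0.66 and −2.75 in controls and −0.45 and −4.83 in prominin cultures at 24 h. It read −3.57, −5.35 and −5.01 in controls and −5.08 and −5.02 in prominin cultures at 108 h. It lay below the reference, before centring, on 9 of 9 arrays that measured it, and averaged −3.63 ± 1.94 (SD). The probe U47923 gave 6 values between 0.47 and 4.02, each of them a small ratio, and the other 6 arrays held zeros or the top code.

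Mbp, which encodes myelin basic protein and also the golli transcripts of the same locus, had 3 probes with different patterns. The probe M36275 read 2.60 on 1 control array and 4.19 and 2.42 on 2 prominin arrays at 24 h, with zeros on the other 3. At 108 h it read 8.17, 7.74 and 8.19 in controls and 6.74, 7.72 and 5.65 in prominin cultures, each above the 3 values at 24 h. Of those at 24 h, the value of 4.19 was a small ratio. The share of probes that separate so with as few values was not computed. The probe NM_010777 read 1.78 and 0.95 in controls and −1.21, −0.21 and 3.47 in prominin cultures at 24 h.

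At 108 h NM_010777 read 4.19, 4.67 and 2.15 in controls and 4.87, 2.91 and 4.89 in prominin cultures. These 6 values were all above the reference before centring, against 1 of 5 values at 24 h. The probe L07508 went the other way, from 4.85, 1.35 and 0.47 in controls and 3.38 on 1 prominin array at 24 h to −1.91, −4.32 and 0.60 in controls and −4.04 and −0.36 in prominin cultures at 108 h. All 4 of its values at 24 h were small ratios. The files do not say which transcripts of the locus each probe detects, so the 3 probes were not averaged in the main comparison.

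Cnp, an enzyme bound to the membranes of myelinating cells, had 6 small ratios among 8 values. They ran from −1.0 to 4.38, both on control arrays at 108 h. Cldn11, which encodes the tight junction protein of central myelin, was measured on all 12 arrays near the typical probe, at 0.83 ± 1.34 (SD). It read 1.31, −0.40 and 0.47 in controls and 1.70, −0.18 and 1.94 in prominin cultures at 24 h, with 2 small ratios in each group. At 108 h it read 1.37, 3.21 and 2.15 in controls and −1.24, 0.44 and −0.82 in prominin cultures, with every control above every prominin array, as for 8.0% of the probes tested.

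**Figure D2:**
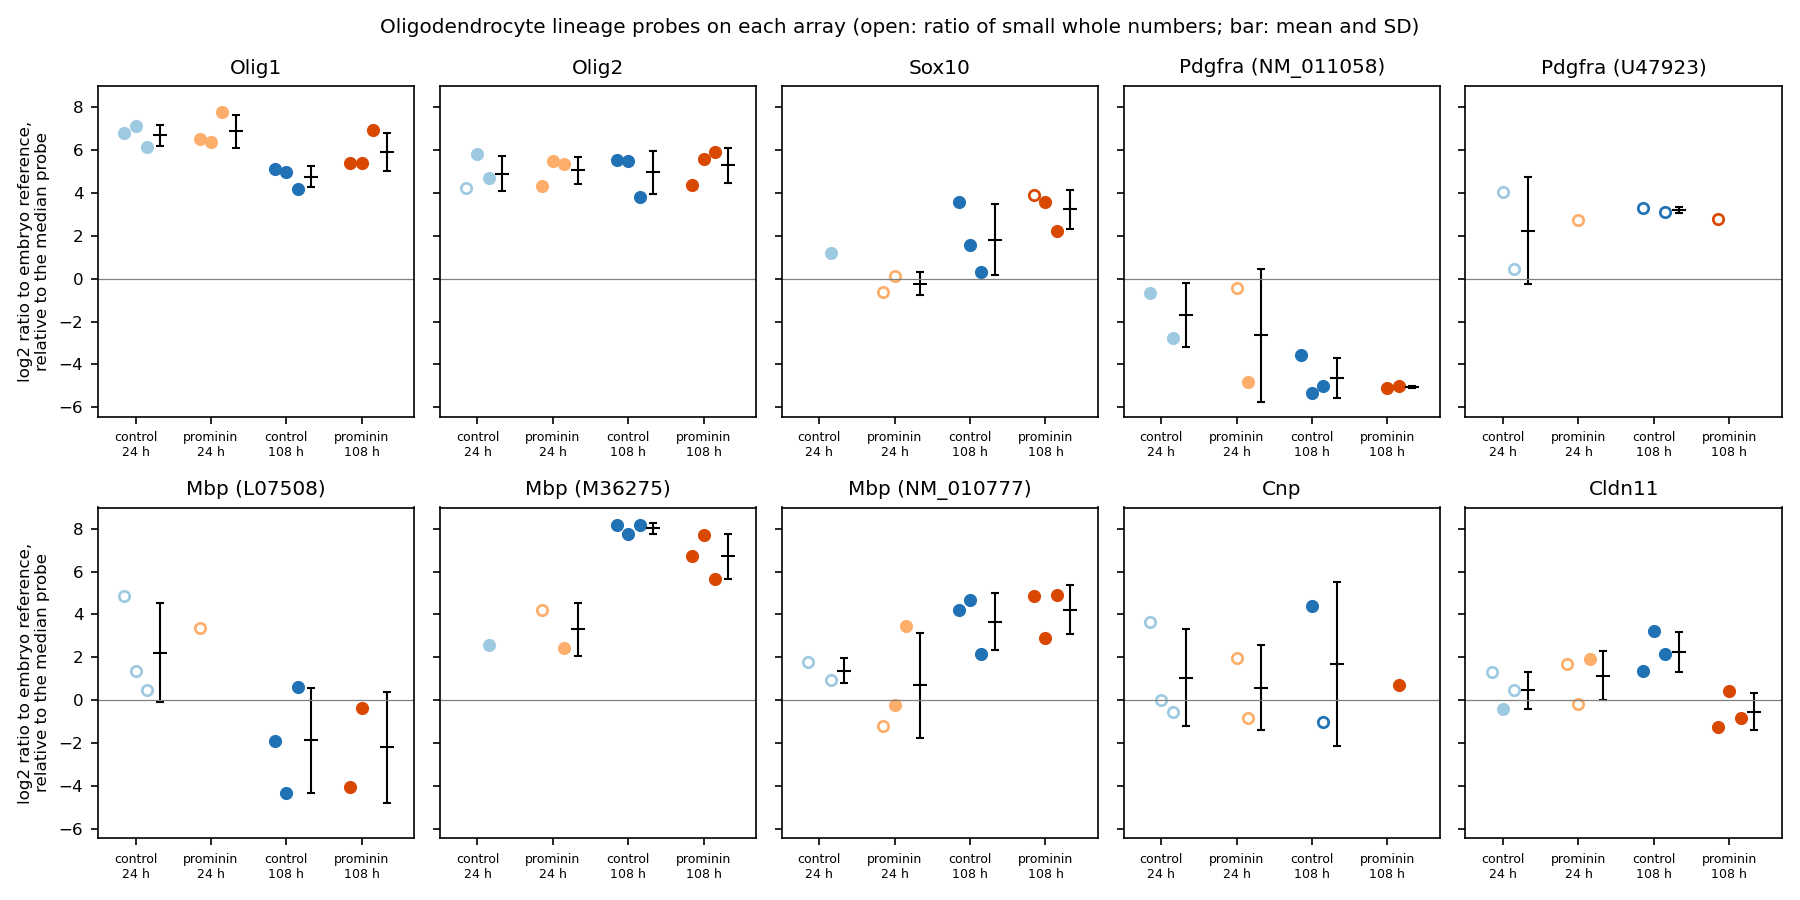
Log2 ratio to the embryo reference, relative to the median probe of the array (vertical axis), for each of the 10 probes in the 4 groups (horizontal axis). Points are arrays, open where the value is a ratio of small whole numbers, and bars give the mean and SD of groups with at least 2 values. Olig1 and Olig2 lie between 3.79 and 7.76 throughout, and Cldn11 separates controls from prominin cultures at 108 h.

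Ordered by their mean over the measured arrays, Olig1 (6.06) and the Mbp probe M36275 (5.93 ± 2.34, SD, n = 9) came first, then Olig2 (5.05), the Pdgfra probe U47923 (2.74), the Mbp probe NM_010777 (2.59 ± 2.10, n = 11) and Sox10 (1.76 ± 1.67, n = 9). Cnp (1.05 ± 2.07, n = 8), Cldn11 (0.83), the Mbp probe L07508 (0.00 ± 3.09, n = 9) and the Pdgfra probe NM_011058 (−3.63) followed. Neighbours in this order differed by less than the SD of at least 1 of them, except that Olig2 and the Pdgfra probe U47923, and likewise L07508 and NM_011058, lay further apart than either SD. The order differs between the times: M36275 averaged 3.07 at 24 h (n = 3) and 7.37 at 108 h (n = 6), against 6.78 and 5.33 for Olig1 and 4.98 and 5.12 for Olig2. It is one of ratios to the embryo and not of transcript amounts.

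The effect of prominin was tested at each time with limma over 9155 probes that had at least 2 values in every group. Of the oligodendrocyte genes, 5 had such a probe: Olig1, Olig2, Pdgfra (NM_011058), Mbp (NM_010777) and Cldn11. At 24 h none of the 5 passed the threshold of 0.05 for the adjusted p, as for all probes tested (0%), and 0 of 5 had an unadjusted p under 0.05, against 4.58% of all probes. The differences at 24 h ran from −0.94 for Pdgfra to 0.69 for Cldn11. The 95% interval was −1.24 to 1.63 for Olig1 and −1.45 to 1.74 for Olig2, so that changes of 2 on the log2 scale, or 4-fold, lay outside both intervals. For Mbp, with an interval of −3.64 to 2.28, they lay inside it. These intervals are of centred values. Before centring, Olig1 averaged 4.84 in controls and 5.71 in prominin cultures at 24 h, and Olig2 3.06 and 3.88. Intervals were not computed for those wider gaps, so a change of 2 is not excluded without centring.

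At 108 h the difference with the smallest p among the 5 genes was that of Cldn11, which was lower in prominin cultures by 2.78 on the log2 scale (−2.78, SE 0.80, 95% interval −4.54 to −1.03). It did not pass the limma test (unadjusted p = 0.00494, adjusted p = 0.669), and an exact two-sided permutation test gave p = 0.1, the smallest that 3 arrays against 3 allow. Cldn11 was 1 of 5 genes with an unadjusted p under 0.05, beside 6.82% of all probes, and 0 of 5 passed, as for all probes (0%). Every prominin array lay below every control for Cldn11, as for 8.0% of all probes. Olig1 was 1.14 higher in prominin cultures (SE 0.66, adjusted p = 0.745, limma) with groups that did not overlap, as for 7.85% of probes in that direction. That gap rested on the centring: without it the difference was 0.066, and the deposited values, 3.81, 4.13 and 2.88 in controls and 2.79, 3.62 and 4.60 in prominin cultures, overlapped. Olig2 (0.33, SE 0.73), Mbp (0.55, SE 1.19) and Pdgfra (−0.41, SE 1.31) differed by less than their standard errors.

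Sox10 and the Mbp probe M36275 had too few values at 24 h to enter that fit, and were tested with 2 values required in the compared groups alone, among 14528 probes, of which 6.34% had an unadjusted p under 0.05. Sox10 was 1.41 higher in prominin cultures at 108 h (SE 1.00, adjusted p = 0.832, limma). Before centring the gap was smaller, with means of 1.00 in prominin cultures and 0.66 in controls. The M36275 probe of Mbp was 1.33 lower on the log2 scale (−1.33, SE 0.85, adjusted p = 0.805, limma). After centring, the probe NM_010777 of the same gene had the opposite sign (0.55, SE 1.19). Before centring, both probes had lower means in prominin cultures. These were 4.47 against 6.88 in controls for M36275, and 1.99 against 2.51 for NM_010777. Over both times together, 0 of the 5 genes passed and 0 had an unadjusted p under 0.05, beside 0% and 5.06% of all probes.

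**Figure D3:**
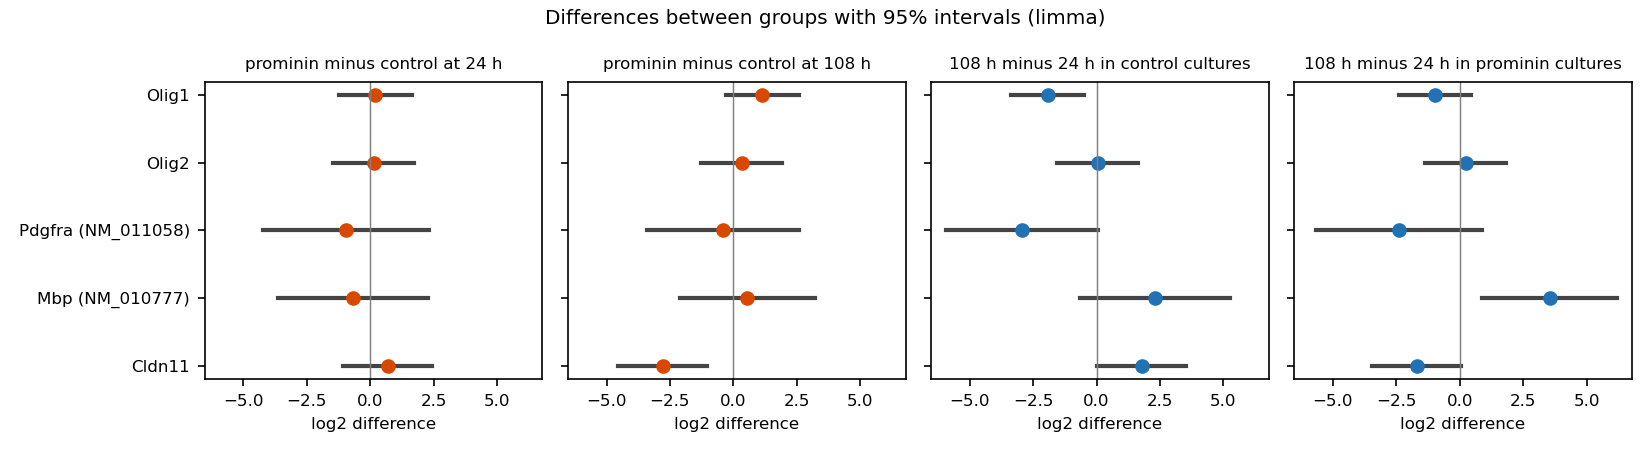
Differences between groups on the log2 scale (horizontal axis) for the 5 tested genes (vertical axis), in 4 comparisons, with 95% intervals from limma. Orange points are prominin minus control and blue points 108 h minus 24 h. The interval of Cldn11 lies below 0 for prominin at 108 h, and none of the 5 genes passed after adjustment over all probes.

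Culture time was compared over both treatments, as the mean difference of 6 arrays at 108 h from 6 at 24 h. Mbp (NM_010777) was 2.92 higher at 108 h (SE 0.90, unadjusted p = 0.00813, adjusted p = 0.299, limma). Olig1 was lower by 1.45 (−1.45, SE 0.46, unadjusted p = 0.00922, adjusted p = 0.313, limma) and Pdgfra (NM_011058) by 2.67 (−2.67, SE 0.97, adjusted p = 0.417, limma). None passed, beside 0.0546% of all probes, whereas 3 of the 5 had an unadjusted p under 0.05, beside 9.70% of all probes. Olig2 (0.14, SE 0.51) and Cldn11 (0.05, SE 0.57) had differences below their standard errors, and the sign for Olig2 turned under 3 other scalings of the arrays.

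Single-gene exact permutation tests of 108 h against 24 h, two-sided and unadjusted, gave p = 0.0108 for Olig1 and 0.013 for Mbp (NM_010777). The same exact permutation tests gave p = 0.0238 for Pdgfra (NM_011058), 0.775 for Olig2 and 0.946 for Cldn11. For the probes outside the fit, exact permutation tests gave p = 0.0119 for Mbp (M36275), the smallest that 6 values against 3 allow. Exact permutation tests also gave p = 0.0357 for Sox10 and 0.0238 for Mbp (L07508), the last with the opposite sign. For Cnp and Pdgfra (U47923) the exact permutation tests gave p = 0.75 and 0.7. The share of all probes with p under 0.05 by the exact permutation test was not computed. Small ratios moved with time as well. With small ratios set to missing, the mean difference of Olig1 was −1.61 (SE 0.41, adjusted p = 0.126, limma) and that of Olig2 −0.19 (SE 0.50). Mbp (NM_010777), Pdgfra and Cldn11 then had too few values at 24 h for the fit, so the part of small ratios in their differences was not tested.

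Within controls alone, Olig1 was lower at 108 h by 1.92 (−1.92, SE 0.66, adjusted p = 0.608, limma), with all 3 arrays at 108 h below all 3 at 24 h. Cldn11 was 1.79 higher (SE 0.80, adjusted p = 0.707, limma), Mbp (NM_010777) 2.30 higher (SE 1.34) and Pdgfra (NM_011058) lower by 2.94 (−2.94, SE 1.31). These, too, did not overlap, though Mbp and Pdgfra had only 2 values each at 24 h. Of the 5 genes, 2 had an unadjusted p under 0.05, beside 6.94% of all probes, and 0 passed, as for all probes (0%). With values required in these 2 groups alone, Mbp (L07508) was lower at 108 h (−4.10, SE 1.64, unadjusted p = 0.0349, adjusted p = 0.761, limma), among 11737 probes of which 6.49% had an unadjusted p under 0.05. Groups without overlap made up 8.40% of probes upward and 10.2% downward.

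Within prominin cultures, Mbp (NM_010777) was 3.54 higher at 108 h (SE 1.19, unadjusted p = 0.0136, adjusted p = 0.401, limma), although the ranges overlapped. Olig1 (−0.98, SE 0.66), Cldn11 (−1.69, SE 0.80, adjusted p = 0.593, limma) and Pdgfra (NM_011058, −2.41, SE 1.43, 2 values at each time) were lower. Olig2 differed by less than its standard error (0.23, SE 0.73). Of the 5 genes, 1 had an unadjusted p under 0.05, beside 8.81% of all probes, and 0 passed, beside 0.0218%. With values required in these 2 groups alone, Sox10 was 3.47 higher (SE 1.08, unadjusted p = 0.0117, adjusted p = 0.462, limma) and Mbp (M36275) 3.40 higher (SE 0.91, unadjusted p = 0.00505, adjusted p = 0.4, limma), among 11893 probes of which 8.01% had an unadjusted p under 0.05. Small ratios made up 2 of 2 Sox10 values at 24 h and 1 of 3 at 108 h, and 1 of 2 values of M36275 at 24 h.

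The difference between these differences was tested as an interaction. Cldn11 had an interaction of −3.48 (SE 1.13, unadjusted p = 0.0103, adjusted p = 0.805, limma): prominin cultures were 0.69 above controls at 24 h and 2.78 below them at 108 h. Cldn11 was the only one of the 5 genes with an unadjusted p under 0.05, beside 5.95% of all probes, and no probe passed (0%). Of its 6 values at 24 h, 4 were small ratios, and their part in the interaction was not tested. For Mbp (1.24, SE 1.79) and Olig1 (0.95, SE 0.93) the intervals reached from −2.73 to 5.20 and from −1.08 to 2.98. Before centring, the sign of both interactions turned. Olig1 then averaged 4.84 in controls and 5.71 in prominin cultures at 24 h, and 3.60 and 3.67 at 108 h. Mbp (NM_010777) averaged −0.39 and −0.48 at 24 h, and 2.51 and 1.99 at 108 h.

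The probes whose values were most like those of each gene over the 12 arrays were picked from 4139 probes of other genes measured on every array. For Olig1 they were Lmbrd1 (Pearson's r = 0.902), the chromatin remodelling ATPase gene Smarca2 (r = 0.868) and Mettl17 (r = 0.830). For Olig2 they were the stress-response gene Nupr1 (r = 0.864), Shisa4 (r = 0.851) and the keratin gene Krt10 (r = 0.832). These are the highest of many correlations over arrays that share a reference and differ in their share of small ratios, and describe these arrays only.

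Beyond the 9 genes, 4 further lists of the lineage were read from the same fits. Among 22 regulators, 18 had a probe and 13 were tested. Of 18 genes of progenitors and committed precursors, 15 had a probe and 8 were tested. Of 24 further myelin genes, 19 had a probe and 12 were tested, and of 26 ligands and receptors, 25 had a probe and 16 were tested. No member of these 4 lists passed in any of the 7 comparisons, by limma with the threshold of 0.05.

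The median of the 9 progenitor and precursor genes measured on at least 8 arrays lay between 4.23 and 6.91 on the 12 arrays. The 6 genes of that list measured on fewer arrays (Tnr, Xylt1, Gjc3, Enpp6, Dll3 and Lpar1) averaged 0.10 to 2.89 and are not in that median. Its members Cntn1, a neural adhesion molecule (7.96 ± 1.70, SD, probe AK004399), C1ql1, a secreted synapse organizer made by progenitors (6.87 ± 1.49, n = 11), Bcas1, a marker of newly forming oligodendrocytes (6.52 ± 1.97, n = 11), and Bcan, a proteoglycan of the matrix (5.76 ± 1.5, n = 11), had the highest levels. Matn4, a matrix protein gene, was low at −3.11 ± 1.44 (n = 11). The median of 15 regulators lay between −0.63 and 1.28. Nkx2-2, a homeodomain factor of progenitors, stood at 4.43 ± 1.69 (n = 10), the RNA-binding protein gene Qk at 2.89 ± 1.06 (probe NM_021881) and Sox9 at 2.39 ± 1.40. Nkx6-2 was low at −2.09 ± 1.68.

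The median of 14 further myelin genes lay between 0.21 and 1.95. Among them Aspa, an enzyme of N-acetylaspartate breakdown, had 4.01 ± 2.01, the proteolipid family gene Gpm6b 3.57 ± 0.75 and Pllp 3.20 ± 1.92 (probe AK002477). In contrast, 4 probes of Trf, the transferrin gene that embryonic liver also expresses, averaged −6.81 to −5.26. Gjb1 (−3.75 ± 1.49) and Cryab (−2.11 ± 0.76) were low as well. Of the ligands and receptors, Notch1 stood highest at 3.85 ± 1.24, and the receptor genes Egfr (−2.20 ± 0.68) and Smo (−2.72 ± 1.75) were low. The median of 19 of these genes lay between −1.25 and 0.79.

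**Figure D4:**
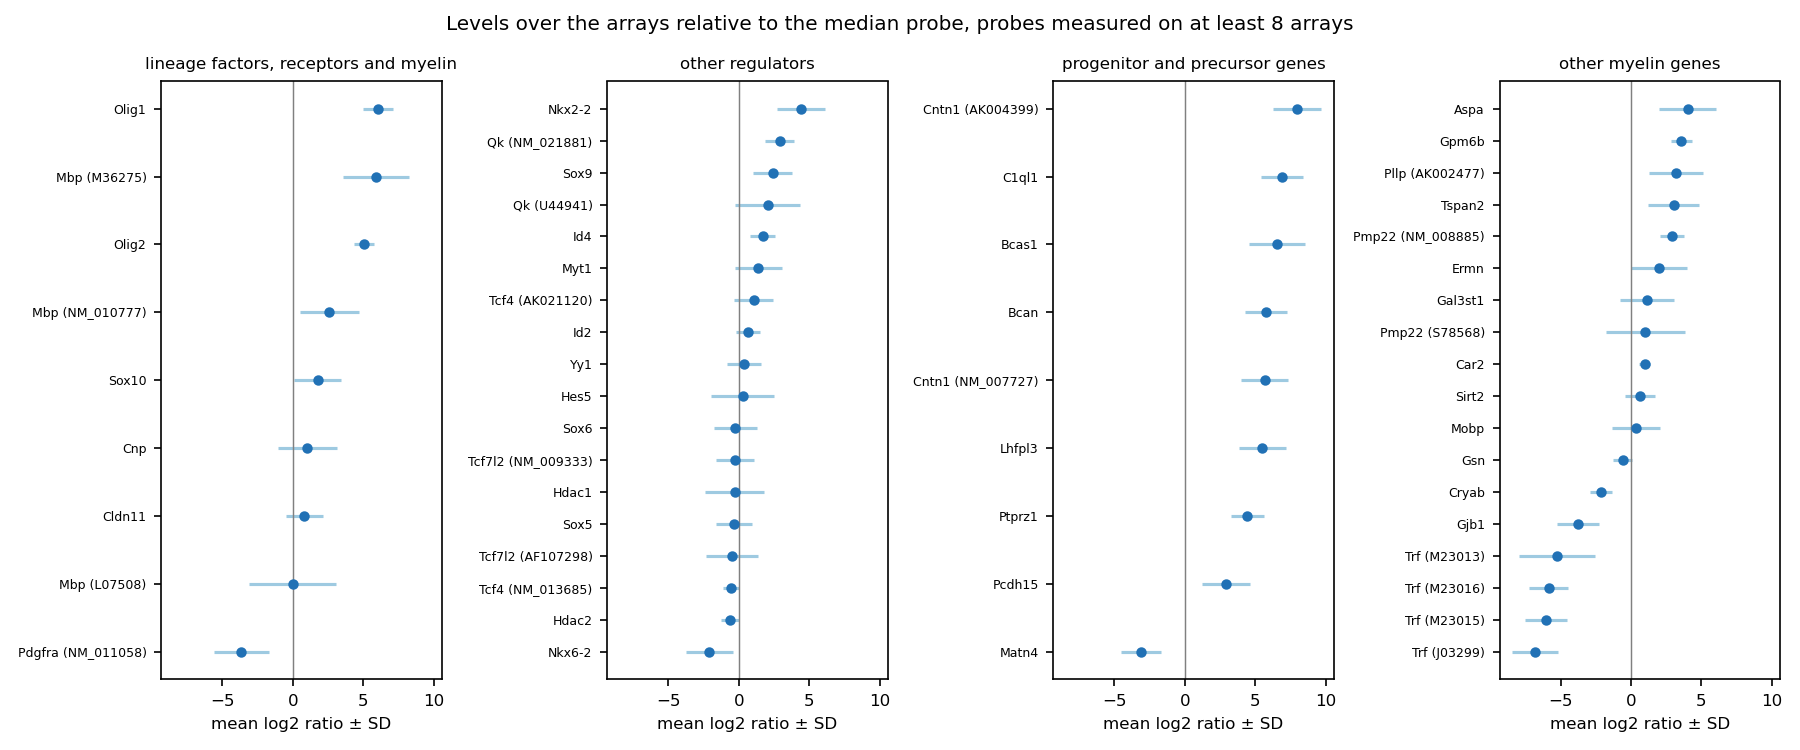
Level of the oligodendrocyte lineage genes, the regulators, the progenitor and precursor genes and the further myelin genes. The ligands and receptors are not shown. Levels are log2 ratios to the embryo reference relative to the median probe, for probes measured on at least 8 arrays. Points are means and bars SDs over arrays. Olig1, Olig2 and several progenitor genes such as Cntn1, C1ql1 and Bcas1 stand above 5.

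Bcas1 came closest to the threshold with time. It read 4.37 and 4.69 in controls and 5.42, 3.46 and 5.34 in prominin cultures at 24 h, and 8.34, 8.0 and 6.86 in controls and 7.87, 9.70 and 7.70 in prominin cultures at 108 h. All 6 values at 108 h lay above all 5 at 24 h, as for 1.10% of probes, and the mean difference was 3.44 (SE 0.59, unadjusted p = 0.000149, adjusted p = 0.0683, limma). The adjusted p ran from 0.0556 to 0.240 under the 22 alternatives that could be fitted for it. The values of 4.37 and 3.46 at 24 h were small ratios, and with small ratios set to missing Bcas1 had too few values for the fit.

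In the same comparison Sirt2, a deacetylase found in myelin, was 1.76 higher (SE 0.45, adjusted p = 0.248, limma) and Pllp 2.37 higher with its probe AK002477 (SE 0.74, adjusted p = 0.299, limma). The other Pllp probe, M18260, went the other way, from a mean of 3.42 at 24 h (n = 2, both small ratios) to 2.49 at 108 h (n = 5), without a test. Ptprz1, a receptor phosphatase of progenitors and radial glia, was lower by 1.59 (−1.59, SE 0.52, adjusted p = 0.326, limma), and Hes5, a Notch target that restrains differentiation, was 3.01 higher (SE 1.18, adjusted p = 0.469, limma). Of the further lists, 2 of 13 regulators, 3 of 8 progenitor genes, 3 of 12 myelin genes and 2 of 16 ligands or receptors had an unadjusted p under 0.05 with time over both treatments, beside 9.70% of all probes. A gene was counted by the smallest p of its probes, whereas the share is of single probes, so the counts are raised against it. Tcf4 was counted through AK021120 (unadjusted p = 0.0408, limma), while its probe NM_013685 had 0.903.

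Trf (probe M23015) was 3.24 higher at 108 h within prominin cultures (SE 0.80, adjusted p = 0.234, limma), and Fgfr1, a fibroblast growth factor receptor, was lower there by 3.09 (−3.09, SE 0.98, adjusted p = 0.358, limma). Over both times, prominin cultures were higher than controls for Notch1 by 1.73 (SE 0.55, adjusted p = 0.952, limma) and for Tcf4, a dimer partner of the Olig factors, by 1.55 with the probe AK021120 (SE 0.64, adjusted p = 0.959, limma). The other Tcf4 probe, NM_013685, differed by −0.20 (SE 0.45), and with the probes of a gene averaged the difference was 0.446. They were lower for the growth factor gene Fgf2 by 2.67 (−2.67, SE 0.80, adjusted p = 0.952, limma) and for Matn4 by 1.79 (−1.79, SE 0.68, adjusted p = 0.955, limma). None of these differences passed.

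With prominin at 108 h, C1ql1 was lower by 2.68 (−2.68, SE 0.73, adjusted p = 0.669, limma). It read 9.73, 8.50 and 8.36 in controls and 6.20, 7.07 and 5.28 in prominin cultures, without overlap, as for 8.0% of probes. Tcf7l2, a factor of differentiating oligodendrocytes, was lower by 2.07 with its probe NM_009333 (−2.07, SE 0.86, adjusted p = 0.717, limma). That difference was −1.20 without prominin 108 h replicate 3, and the other Tcf7l2 probe, AF107298, gave −0.21 (SE 1.51). Nkx2-2, picked after its values were seen, read 4.89, 4.40 and 3.45 in controls and 7.03, 6.65 and 6.22 in prominin cultures. With 2 values required in the compared groups alone, among 14528 probes, the difference was 2.39 (SE 0.71, adjusted p = 0.77, limma). It was not recomputed without centring. The medians subtracted at 108 h were −1.32 to −0.84 in controls and −2.59 to −1.78 in prominin cultures, so centring widened this difference.

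The median difference of each list with time over both treatments was 0.05 for the 5 genes, 0.34 for regulators, 1.02 for progenitor genes, −0.09 for further myelin genes and −0.06 for ligands and receptors, beside −0.04 for all probes tested. With prominin at 108 h these medians were 0.33, −0.62, 0.03, −0.22 and 0.33, beside 0.00.

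Sox10, Mbp and Cldn11 are also expressed by other cells, so markers of those cells were read on the same arrays. The median of 8 genes of neural crest and Schwann cells lay between 0.70 and 4.48 at 24 h and between 0.06 and 2.79 at 108 h. Egr2, a myelination factor of Schwann cells that is also an immediate early gene, stood at 7.65 ± 1.42, Foxd3 at −1.21 ± 1.54 (n = 9) and Ngfr at −3.45 ± 1.53 (n = 8). At 108 h, where Cldn11 separated the groups, the neural crest median was 0.06 to 1.63 in controls and 1.55 to 2.79 in prominin cultures. The astrocyte median was 4.26 to 4.68 in controls and 2.63 to 4.35 in prominin cultures at the same time.

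Medians of neuronal genes lay between −2.24 and −0.24 on the 12 arrays, with 12 of 13 genes used. Those of microglia and leukocytes lay between −3.16 and 1.56 and those of endothelium between −4.33 and 0.38. With time over both treatments the astrocyte gene Apoe, a lipid carrier, rose by 2.56 (SE 0.37, adjusted p = 0.0409, limma), from values of −2.0 to −0.90 at 24 h to 0.68 to 1.76 at 108 h, a call that was lost in 16 of 26 alternatives. Of the 8 astrocyte genes tested, 3 read higher and 5 lower at 108 h, with a median difference of −0.22, and Apoe was the 1 that passed. The part of these cell types in the values of the oligodendrocyte genes was not tested.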

How the data were processed

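Neurosphere RNA was measured on 12 two-colour mouse arrays. The authors deposited a table of 21738 probes, in log2 ratios taken as neurosphere (Cy5) over embryo reference (Cy3), with no dye swap. RNA was extracted with Trizol and RNeasy columns and labelled with dendrimers, per the labels' protocols. No source used here names the scanner, image software, background correction or normalization, and the table holds no signal or background, so the precision was judged from the 3 arrays of a group. Exact zeros and the top code of 16.61 (a ratio of 100025) were set to missing. From each array the median of the 4532 probes that every array measured was subtracted. A small ratio was called with a tolerance of 6e-04 on the log2 scale.

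The 9155 probes with 2 or more values in every group were fitted with limma 3.58.1 in R 4.3.3, with 1 mean per group, moderated variance, 7 contrasts and Benjamini-Hochberg adjustment over all probes of a contrast at 0.05. A probe missing on an array was fitted on the remaining arrays. Exact two-sided permutation tests were run for single probes. The fit was tested on simulated data.

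Names came from a platform annotation that can be old: 16620 probes had 1 symbol, 113 several and 5005 none. The 9 genes and all further lists were chosen with earlier results of these data known. All members with a probe were named, then from each further list up to 4 genes by smallest unadjusted p and up to 4 by highest and lowest level over at least 8 arrays. List medians per array used genes measured on at least 8 arrays.

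Groups share replicate numbers. Deviations of same-numbered arrays from their group means correlated at −0.07 to 0.12 over 18 pairs of groups and number. Those of differently numbered arrays correlated at −0.12 to 0.12. Between controls and prominin cultures at 108 h, same-numbered arrays gave 0.05 to 0.12 and the others −0.12 to 0.01. Between prominin cultures at 24 h and controls at 108 h, same-numbered arrays gave −0.07 to 0.02. The numbers were not taken to pair the samples, but a weak sharing by number is not excluded. Array correlations were 0.604 to 0.783 within groups and 0.552 to 0.781 between them.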

Additional observations from a re-analysis of the deposited data

How the results depend on the processing

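From the comparisons of the oligodendrocyte genes, 14 were picked and recomputed 348 times under the alternatives. Of these, 339 kept their direction and stayed above the threshold, 9 changed sign and 0 passed. The 14 left out the prominin differences at 108 h of Olig2 (0.33) and Mbp (NM_010777, 0.55). Before centring, their means were lower in prominin cultures (3.05 and 1.99) than in controls (3.80 and 2.51). Left out as well were the prominin differences at 24 h and the interactions of Olig1 and Mbp (NM_010777), which had the opposite sign before centring. Among the 14 that were picked, all 9 changes of sign were of Olig2. Its mean difference with time, 0.14, was −0.046 without centring, −1.03 with quantile normalization, −0.036 with centring on all measured probes, −0.19 with small ratios set to missing, and −0.037 to 0.44 with 1 array left out. Its mean prominin difference, 0.24, was −0.0503 to 0.47 with 1 array left out. The counts of probes passing moved more, and the cause was not tested. With exact zeros kept they were 1, 1, 3 and 1 (prominin at 24 h, at 108 h, mean time and mean prominin, from 0, 0, 5 and 0). With zeros and the top code kept they were 26 (24 h), 11 (time in controls), 16 (time in prominin cultures), 23 (interaction), 26 (mean time) and 25 (mean prominin). With small ratios set to missing they were 3, 10, 30 and 1 (time in controls, time in prominin cultures, mean time and mean prominin), and with probes measured on all 12 arrays 2, 21 and 34 (the first 3 of these). Time in prominin cultures gave 7 without centring, 0 with its own groups only and 7 without moderation, against 2. Mean time gave 2 with 1 value per group, 11 with a trended robust variance, 36 without moderation, 19 with array weights and 2 with the replicate number as a block. Apart from that count and from Apoe, the block changed no call. With 1 array left out the counts were 0 to 1 for prominin at 24 h, 1 to 3 for time in prominin cultures, 2 to 9 for mean time and 0 for the other comparisons. The median of the 10 probes' mean levels, 2.18, was 0.61 without centring, 0.48 with quantile normalization and 1.01 with zeros kept, and was 1.93 to 2.38 with 1 array left out. Of 16 comparisons of other named genes, recomputed 378 times, none changed sign, and the 16 that fell short of the threshold were all of Apoe, which passed in 10 of 26 alternatives. The small number of arrays and the small ratios at 24 h limit the precision.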
